A study of Mus musculus with 4 samples.

Results

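Glycolysis and the pentose phosphate pathway were followed in lungs of male C57BL mice kept in clean air or exposed to mainstream cigarette smoke. The genes were a set of 32 listed by pathway: enzymes of both routes, the transporters that bring glucose in and carry lactate out, and the enzymes that set the speed of phosphofructokinase. Each was matched by its symbol to features of the array that carried that symbol alone, and where a gene had several, the feature with the highest mean signal was taken. In this way 28 of the 32 genes had a value, out of 30142 genes measured, and 27 lay above an expression filter that 18084 genes passed. Gpi1, Eno1 and G6pdx were matched to no feature, Tkt was matched only to a feature shared with a microRNA gene, and these 4 were not analysed here. Eno2, the neuronal enolase, was measured but did not pass the filter.

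The study had 4 groups, each a single pool of lungs on 1 array. Mice entered at 10 weeks of age and were exposed for 1 h per day on 5 days per week. The control group of 2 weeks (5 mice, 12 weeks old) and that of 4 weeks (5 mice, 14 weeks old) breathed clean air. The smoke group of 2 weeks (5 mice) and that of 4 weeks (4 mice) had the same ages as their controls. Pools hide the spread between animals, and no group had a second pool. A difference between 2 pools is therefore given without a p-value, and its genes are called higher or lower. Rose and fell are kept for genes with a limma adjusted p under 0.05 (Benjamini-Hochberg, over all 18084 genes), in a model with terms for smoke and duration over the 4 arrays. That model takes as error any change of the smoke difference between the durations, and part of the error may be technical. All values below are log2 signals or differences of log2 signals, and a fold assumes that the linear values were made with base 2. That base is not established: 541 to 581 features per array lay above the usual ceiling of scanner readings, with values up to 845602, and with base e every count of members at 1.5-fold would be 0. Apart from sums over marker lists and the naming of their brightest genes, signals of different genes were not compared with each other. Whole lung is a mixture of cell types, so that fewer cells of a type and less RNA per cell cannot be told apart.

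Glycolysis splits glucose into pyruvate in the cytosol and yields ATP and NADH, and lactate dehydrogenase turns pyruvate into lactate. The pentose phosphate pathway draws glucose phosphate off at the top of this route. Its oxidative part makes NADPH, which keeps glutathione reduced, and its non-oxidative part shuffles sugars back into glycolysis or on to ribose. In lung, alveolar type 2 cells use glucose for surfactant lipid, and activated macrophages and neutrophils run a fast glycolysis. The NADPH for the oxidase of these phagocytes comes from the pentose phosphate pathway. Many glycolytic genes are known targets of the hypoxia-inducible factor HIF-1, and several pentose phosphate genes of NRF2, the regulator of antioxidant genes.

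Of the 27 genes fitted, 1 rose with smoke over both durations, 0 fell and 26 did not pass limma. Across all genes fitted, 1.15% rose and 0.315% fell. At an unadjusted p under 0.05 the members counted 3 of 27, beside 11.6% of all genes. The gene that rose was Aldoc. It was also the only member at least 1.5-fold different at 2 weeks, where 3.04% of all genes were, 1.82% higher and 1.22% lower. The same was true at 4 weeks, beside 4.04% of all genes, 2.53% higher and 1.5% lower. Aldoc was therefore 1 member at least 1.5-fold higher at both durations, against 1.13% of all genes (0.337% were lower at both). The median smoke difference over the members was 0.08 at 2 weeks and 0.05 at 4 weeks, and over all genes it was 0.01 and -0.02. At 2 weeks 20 of 27 members were higher in the smoke pool, Pfkl among them at 0.00 (51.3% of all genes), and at 4 weeks 15 of 27 (46.5% of all genes). After median centring the first count was 17, and after cyclic loess it was 19. The limma effect was positive in 18 of 27 members with all pools, and in 8, 18, 21 and 15 of 27 without the 2-week control, 2-week smoke, 4-week control and 4-week smoke pool (fits without duration). With a pool left out and no duration term, smoke and duration are mixed, so these counts cannot show what a single pool contributes. No share over all genes was at hand for these sign counts, so they do not set the members apart from other genes. With all pools the median effect was 0.04 over the members and 0 over all genes. The 95% intervals of the 26 members that did not pass reached from 0.687-fold at the lowest to 1.39-fold at the highest.

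**Figure D1:**
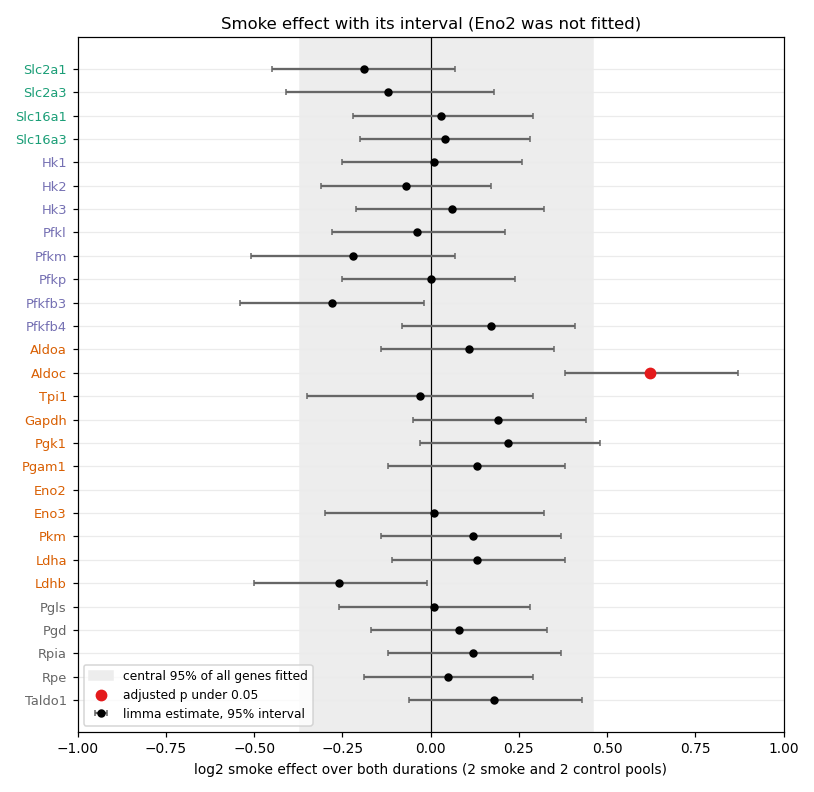
Log2 smoke effect of each gene over both durations (horizontal axis) with its 95% interval from limma, over 2 smoke and 2 control pools, beside the range that held the central 95% of all genes fitted (-0.37 to 0.46, grey). Name colours mark transport (green), hexose phosphate steps (violet), triose phosphate steps to lactate (orange) and pentose phosphate steps (grey); Aldoc, its point in red, was the 1 member whose estimate lay outside the grey range.

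Aldolase splits fructose bisphosphate into the triose phosphates that the rest of glycolysis uses. Aldoc encodes aldolase C, the isozyme best known from brain, and Aldoa encodes aldolase A, the form of muscle and most other tissues. Aldoc stood at 6.14 in the 2-week control, 6.74 in the 2-week smoke, 6.39 in the 4-week control and 7.04 in the 4-week smoke pool. Both smoke pools were above both control pools. The smoke pool was 1.51-fold higher at 2 weeks and 1.57-fold higher at 4 weeks, and the effect over both durations was 0.62 ± 0.101 (standard error; limma adjusted p = 0.0469). Aldoa read 9.96, 10.09, 10.20 and 10.28 in the same order of pools. Its 4-week control lay above its 2-week smoke pool, so the groups overlapped, and its effect was 0.11 ± 0.101 (limma adjusted p = 0.807). The difference between the effects of both aldolases was not tested.

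The Aldoc call lay close to the threshold. It was lost after median centring (limma adjusted p = 0.145), after cyclic loess (0.108), with no filter on low signal (0.0713), with a prior variance that followed the mean signal (0.0532) and without the duration term (0.436). Over all genes the main fit called 265, against 8 after median centring, 24 after cyclic loess and 0 without the duration term. With no filter 224 were called, and with that prior variance 311. Fits without duration that also left out a pool gave Aldoc an effect of 0.50 without the 2-week control and 0.77 without the 2-week smoke pool. The effect was 0.75 without the 4-week control and 0.47 without the 4-week smoke pool. With only protein-coding genes fitted the Aldoc call was kept (limma adjusted p = 0.000763), beside 882 calls over all genes. Above the 60th percentile of signal Aldoc was no longer among the genes fitted. If the deposited values were made with base e, the effect would be 0.43, with the same adjusted p, and neither duration would reach 1.5-fold.

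Markers of some cells rose beside Aldoc. Of 10 measured alveolar macrophage markers, 7 rose. The 3 that did not pass were Fabp4 (0.30 ± 0.147), Siglecf (0.00 ± 0.113) and Krt79 (-0.32 ± 0.101), the last lower with smoke at both durations. The summed linear signal of the 10 was 26900 in the 2-week control, 65200 in the 2-week smoke, 31400 in the 4-week control and 89100 in the 4-week smoke pool. Plet1, the brightest of them at 13.64, 14.88, 13.95 and 15.18, weighs most in these sums. Of 8 cell cycle genes above the filter, 4 rose, with summed signals of 1730, 2830, 1590 and 3400. Of 10 monocyte and interstitial macrophage markers 3 rose (C1qa, C1qb and C1qc). At each duration 8 of 10 were higher in the smoke pool, with medians of 0.40 and 0.54. The list's summed signals of 160000, 151000, 210000 and 185000 were lower in each smoke pool than in its control. Lyve1 and Ly6c2, the brightest of the list at 16.73 and 15.52 in the 2-week control, weigh most in these sums. The part of these cells in the Aldoc result was not tested. Of 6 measured neuron and Schwann cell markers, only Uchl1 lay above the filter, at 5.87, 5.96, 5.91 and 6.09, and it did not pass (0.13 ± 0.102, limma adjusted p = 0.737). Tubb3, Snap25, Syt1, Sox10 and Chga were not above the filter.

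The stretch before the annotated start of Aldoc is shown with those of Pgk1 and Hk2, members long studied as hypoxia-responsive genes, because Aldoc was the member that rose and the other 2 did not pass. Each run holds the 250 bases before the start, from the RefSeq promoters of GRCm38.p6, and none overlaps an annotated gene. Capitals mark the letters ACGTG, the core of the HIF-1 response element, on either strand (CACGT on the opposite one), and would also mark TGACNNNGC, the core of the NRF2 response element, which none of the 3 runs holds. The Aldoc run comes from chr11:78322823-78323072 (plus strand), that of Pgk1 from chrX:106186850-106187099 (plus strand) and that of Hk2 from chr6:82774455-82774704 (minus strand).
Aldoc: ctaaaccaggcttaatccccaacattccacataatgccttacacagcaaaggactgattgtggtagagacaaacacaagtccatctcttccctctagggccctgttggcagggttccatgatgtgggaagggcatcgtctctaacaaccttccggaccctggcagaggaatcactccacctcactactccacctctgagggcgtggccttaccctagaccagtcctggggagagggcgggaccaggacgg
Pgk1: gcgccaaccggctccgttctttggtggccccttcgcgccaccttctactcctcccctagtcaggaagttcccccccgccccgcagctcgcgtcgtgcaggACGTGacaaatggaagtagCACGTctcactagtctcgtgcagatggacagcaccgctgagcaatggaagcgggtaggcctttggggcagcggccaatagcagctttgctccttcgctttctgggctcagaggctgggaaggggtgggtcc
Hk2: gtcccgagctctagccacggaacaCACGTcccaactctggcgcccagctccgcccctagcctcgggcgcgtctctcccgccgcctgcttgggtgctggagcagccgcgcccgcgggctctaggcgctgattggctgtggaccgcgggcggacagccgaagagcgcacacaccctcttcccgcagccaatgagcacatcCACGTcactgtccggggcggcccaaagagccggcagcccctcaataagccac

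The ACGTG letters occurred at 2 places in the Pgk1 window, beginning 150 and 131 bases before the start, and at 2 in the Hk2 window, beginning 226 and 52 bases before it. Neither Aldoc window, that shown and a second one at a start inside the gene, held ACGTG or TGACNNNGC. The promoter table held 31 of the 32 genes with 44 starts between them. ACGTG lay in 15 of these 44 windows, or 34.1%, beside 16.6% of all 32851 windows of that length. The E-box CACGTG, which contains ACGTG on both strands, lay in 4 of 44 (9.09%, against 6.02% of all windows). TGACNNNGC lay in 4 of 44 (9.09%, against 10.2%), and CCAAT, the box bound by nuclear factor Y, in 13 of 44 (29.5%, against 33.8%). A match describes letters only. Which of the annotated starts the lung uses was not examined.

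The transporters came next. Slc2a1 encodes the glucose transporter GLUT1, found in most cells. Its signal was 10.58 in the 2-week control, 10.50 in the 2-week smoke, 11.03 in the 4-week control and 10.75 in the 4-week smoke pool. The smoke pools were lower by small amounts at both durations, but both 4-week pools were above both 2-week pools, and the effect of -0.19 ± 0.108 did not pass (limma adjusted p = 0.626). Slc2a3, the high-affinity glucose transporter of neurons and leukocytes, read 7.54, 7.60, 7.64 and 7.34 in the same order. Its smoke differences had opposite signs, 0.06 at 2 weeks and -0.30 at 4 weeks, and the mean of -0.12 ± 0.123 did not pass (limma adjusted p = 0.838). Neutrophil markers had a median of -0.01 at 2 weeks and -0.92 at 4 weeks, with summed linear signals of 2740, 2750, 5020 and 2230, and 1 of the 8 above the filter rose (Ngp and Camp were not above it). Their part in the Slc2a3 values was not tested. The monocarboxylate transporters Slc16a1, a carrier of lactate and pyruvate, and Slc16a3, the lactate exporter of highly glycolytic cells, had effects of 0.03 ± 0.105 and 0.04 ± 0.100. Slc16a3 read 6.47, 6.51, 6.62 and 6.66, and both its 4-week pools lay above both 2-week pools.

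The hexose phosphate steps hold the controls of the pathway, and 0 of 8 genes passed, with a lowest limma adjusted p of 0.395. Hexokinases trap glucose in the cell. Hk1, the widespread form, was at 8.48, 8.56, 8.61 and 8.54, Hk2, the inducible form, at 8.23, 8.16, 8.22 and 8.15, and Hk3, a form of white blood cells, at 5.98, 5.92, 5.92 and 6.09. The effects were 0.01 ± 0.105, -0.07 ± 0.100 and 0.06 ± 0.111. Hk2 was lower in both smoke pools than in both controls, by -0.07 and -0.06, differences within the standard error of the fit. Hk3 lay little above the filter of 5.82.

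Phosphofructokinase commits sugar to glycolysis, and none of its 3 subunit genes passed. Pfkl, the liver-type subunit, differed by 0.00 at 2 weeks and -0.07 at 4 weeks, and Pfkp, the platelet-type subunit, by 0.03 and -0.04. Pfkm, the muscle-type subunit, read 8.70, 8.65, 9.08 and 8.69. Its 4-week control stood above the other 3 pools, which lay within 0.05 of each other, so that the 4-week smoke difference of -0.39 came with a difference of 0.38 between the control pools. The effect of Pfkm was -0.22 ± 0.121 (limma adjusted p = 0.60). Cardiac and skeletal muscle markers had medians of -0.16 at 2 weeks, -0.29 at 4 weeks and 0.19 between the control pools. Their summed linear signals were 14100, 11700, 18600 and 10800, and 0 of the 11 above the filter passed. Tnnt2, the brightest of them at 12.78, 12.47, 13.22 and 12.38, weighs most in these sums. The 4-week control was above the 2-week control in 8 of the 11, and below it for Myh6 (-0.20), Myl7 (-0.10) and Tnnt3 (-0.15). The part of muscle tissue in the Pfkm values was not tested.

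Pfkfb3 and Pfkfb4 encode enzymes that make and remove the fructose bisphosphate isomer that activates phosphofructokinase. Pfkfb3 had the most negative effect of all members. It read 10.43, 10.26, 10.51 and 10.13, so that both smoke pools were below both controls, by -0.17 at 2 weeks and -0.38 at 4 weeks. The effect was -0.28 ± 0.109 (limma adjusted p = 0.395, unadjusted 0.0412). Pfkfb4 moved the other way in both comparisons, at 9.24, 9.45, 9.58 and 9.71, with differences of 0.21 and 0.12. Its 4-week control lay above its 2-week smoke pool, and the effect of 0.17 ± 0.102 did not pass (limma adjusted p = 0.651). At 4 weeks Pfkm and Pfkfb3 were the 2 members lower by at least 0.322 on the log2 scale, beside 7.65% of all genes, and Aldoc was the 1 member higher by as much, beside 9.02%.

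**Figure D2:**
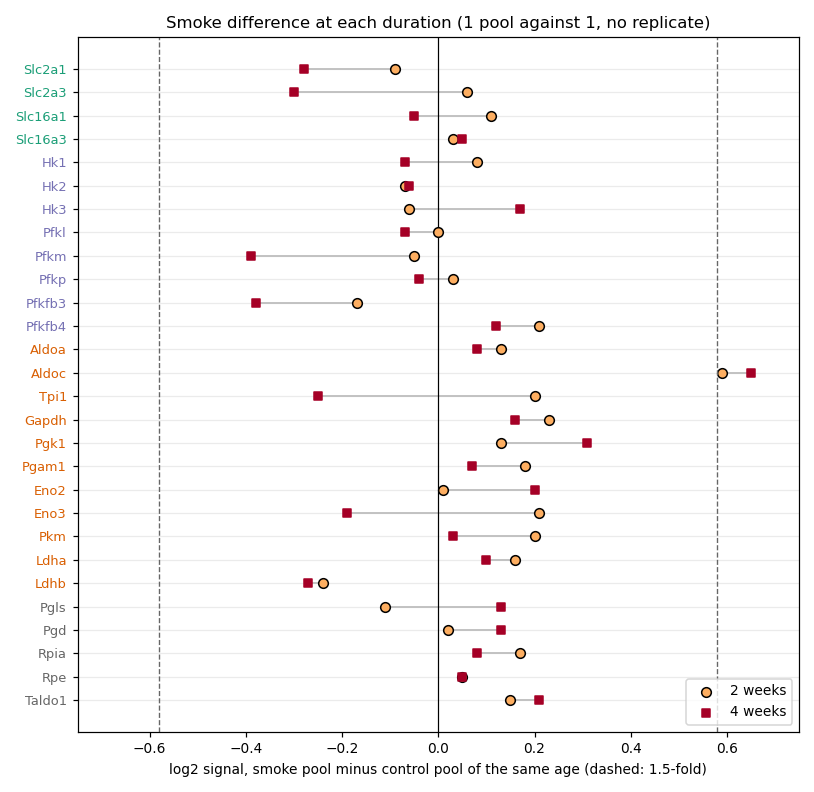
Log2 signal of the smoke pool minus that of the control pool of the same age (horizontal axis) for each measured gene, at 2 weeks (circles) and 4 weeks (squares), with 1 pool against 1 and no replicate. Aldoc lies at or past the 1.5-fold lines at both durations (0.59 and 0.65), and Tpi1, Eno3 and Slc2a3 have differences of opposite sign.

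Of 10 genes from triose phosphate to lactate above the filter 1 rose, Aldoc, and 9 did not pass. In the smoke pool 9 of 10 were higher at 2 weeks (51.3% of all genes) and 7 of 10 at 4 weeks (46.5% of all genes). Their medians were 0.19 and 0.08, where all genes had 0.01 and -0.02. The counts of 9 and 7 were also found after median centring and after cyclic loess. The effect over both durations was positive in 8 of 10 genes with all pools. Without the 2-week control, in a fit without duration, it was positive in 3 of 10, Aldoc, Gapdh (0.03) and Pgk1 (0.20). That fit sets the 2-week smoke pool against the 4-week control, so smoke and duration are mixed in it. The 4-week smoke difference, 1 pool against 1, was positive in the 7 of 10 given above. Among these, Pkm (0.03), Pgam1 (0.07) and Aldoa (0.08) lay within the standard error of the fit. Without the 2-week smoke, 4-week control or 4-week smoke pool, again without duration, the effect was positive in 8, 9 and 8 of 10. For these sign counts of the effect, too, no share over all genes was at hand. Gapdh, which makes the NADH of glycolysis, read 15.26 in the 2-week control, 15.49 in the 2-week smoke, 15.57 in the 4-week control and 15.73 in the 4-week smoke pool. Each smoke pool was above its own control, by 0.23 and 0.16, but the 4-week control was above the 2-week smoke pool. The effect was 0.19 ± 0.101 (limma adjusted p = 0.568). Pgk1, the first ATP-yielding step, read 12.30, 12.43, 12.34 and 12.65. Both its smoke pools were above both controls, by 0.13 and 0.31, and its effect of 0.22 ± 0.107, the highest after Aldoc, did not pass (limma adjusted p = 0.513). These values come from the brighter of 2 features for Pgk1, whose number places it on chromosome 12, while the gene lies on X, so that the signal may be that of a copy. It was the 1 of 27 members compared whose feature was numbered for another chromosome than its gene. The feature numbered for X read 10.34, 10.50, 10.43 and 10.68, again with both smoke pools above both controls, and its effect of 0.20 ± 0.102 did not pass (limma adjusted p = 0.546). The promoter printed for Pgk1 is that of the gene on X.

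Pgam1, the phosphoglycerate mutase, was at 11.56, 11.74, 11.91 and 11.98, and Pkm, the pyruvate kinase that ends the route to pyruvate, at 10.91, 11.11, 11.26 and 11.30. In both, the smoke pool was the higher of its pair, and the control pools differed by more (0.35 and 0.36) than the smoke pool from its control at either duration. The annotation ties 1 further feature to Gapdh and 2 to Pgam1 that carry the symbol of a copy as well, and these were not used. Whether the probes of such genes also bind their copies was not examined. Tpi1, the triose phosphate isomerase, stood at 9.72, 9.91, 10.34 and 10.08, with smoke differences of 0.20 at 2 weeks and -0.25 at 4 weeks. Eno3, the muscle enolase, stood at 8.20, 8.41, 8.52 and 8.33, with differences of 0.21 and -0.19. For both genes the 2-week control was the lowest and the 4-week control the highest pool. Eno2, not above the filter, read 5.41, 5.41, 5.32 and 5.52.

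Neither lactate dehydrogenase gene passed. Ldha, the muscle-type subunit that favours lactate, read 11.17, 11.34, 11.47 and 11.57, with smoke differences of 0.16 and 0.10 and an effect of 0.13 ± 0.101 (limma adjusted p = 0.733). Its effect was -0.01 without the 2-week control, 0.25 without the 2-week smoke, 0.28 without the 4-week control and 0.02 without the 4-week smoke pool. These fits had no duration term, so they mix smoke with duration. Ldhb, the heart-type subunit that favours pyruvate, read 11.64, 11.39, 11.64 and 11.37. The control pools differed by 0.00 and both smoke pools were lower, by -0.24 and -0.27. The effect of -0.26 ± 0.101 did not pass when adjusted over all genes (limma adjusted p = 0.397, unadjusted 0.0419). Neither the difference between the subunits nor its change with smoke was tested.

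The pentose phosphate genes had small differences that were mostly on the higher side. Of 5 genes above the filter 0 passed limma, 0 had an unadjusted p under 0.05, and the lowest adjusted p was 0.60. In the smoke pool 4 of 5 were higher at 2 weeks (51.3% of all genes) and 5 of 5 at 4 weeks (46.5% of all genes), with medians of 0.05 and 0.13. Differences such as 0.02 for Pgd at 2 weeks and 0.05 for Rpe at both durations lay within the standard error of the fit. Taldo1, the transaldolase that links the pathway to glycolysis, read 7.83, 7.98, 7.86 and 8.07. Both smoke pools were above both controls, and the effect was 0.18 ± 0.101 (limma adjusted p = 0.60), with a 95% interval of 0.958-fold to 1.34-fold. Rpia, the ribose phosphate isomerase, read 7.89, 8.06, 7.89 and 7.97, and its smoke pools too were above both controls, with an effect of 0.12 ± 0.102. Rpe, the ribulose phosphate epimerase, read 10.20, 10.26, 10.20 and 10.25, a range of 0.06, and had an effect of 0.05 ± 0.100.

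In the oxidative part, Pgd, the second NADPH-yielding enzyme, read 9.87 and 9.89 at 2 weeks and 10.09 and 10.23 at 4 weeks. Both 4-week pools were above both 2-week pools, and the smoke effect was 0.08 ± 0.103 (limma adjusted p = 0.879). Pgls, the lactonase between both dehydrogenases, had differences of -0.11 and 0.13. G6pdx, the first enzyme of this part, was among the genes not analysed here.

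**Figure D3:**
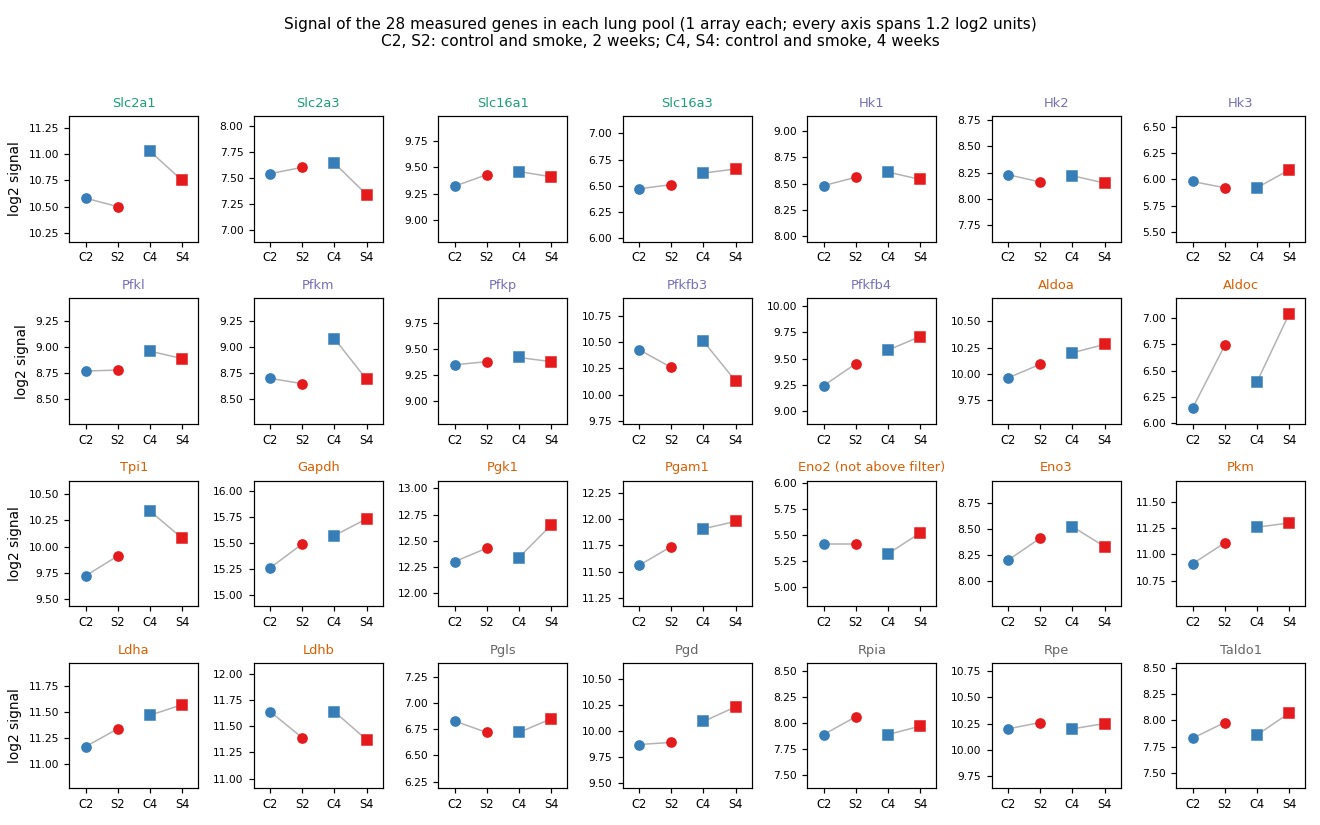
Log2 signal of each of the 28 measured genes (vertical axis, every panel spanning 1.2 log2 units) in the 2-week control (C2), 2-week smoke (S2), 4-week control (C4) and 4-week smoke (S4) pool, with lines joining pools of the same age. Each point is 1 array; in the Aldoc panel both smoke pools stand above both controls, and in 9 of the 10 fitted genes from triose phosphate to lactate the C2 point is the lowest.

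The pools of both durations were then compared, since the levels above often differed between the controls. Over the members the 4-week control was higher than the 2-week control by a median of 0.14, against 0.01 for all genes. It was the higher in 23 of 27 members (52.1% of all genes), in 19 after median centring and in 21 after cyclic loess. Ldhb and Rpe are counted among the 23 with a difference of 0.00. Only Tpi1 differed at least 1.5-fold, at 1.54-fold higher, beside 4.09% of all genes (1.85% higher and 2.25% lower). By at least 0.322 on the log2 scale 6 members were higher, Slc2a1, Pfkm, Pfkfb4, Tpi1, Pgam1 and Pkm, beside 8.64% of all genes, and 0 were lower. Gapdh and Eno3, both at 0.32, lay just under that threshold. The steps from triose phosphate to lactate had a median of 0.30, with 10 of 10 genes higher (Ldhb at 0.00), or 8 of 10 after median centring. The comparison of the smoke pools shares no array with that of the controls and is again 1 pool against 1. It gave a median of 0.20 for the same 10 genes, with 8 of 10 higher at 4 weeks. Over all genes its median was 0, with 9113 of 18084 higher at 4 weeks. Gapdh differed by 0.32 in the controls and 0.24 in the smoke pools, Pgam1 by 0.35 and 0.23, Ldha by 0.29 and 0.23, and Aldoc by 0.25 and 0.30. Between the control pools the neutrophil markers had a median of 0.71, with 5 of 8 at least 1.5-fold higher. The 5 adipocyte markers above the filter had a median of 0.45, with summed linear signals of 1740, 2930, 3860 and 2050. Car3, the brightest of them at 10.30, 11.22, 11.63 and 10.63, weighs most in these sums. It was lowest in the 2-week and highest in the 4-week control, as were Tpi1 and Eno3. None of the other adipocyte markers above the filter had that order of pools. The part of these cells in the members' differences was not tested.

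In the limma model 0 of 27 members and 0 of 18084 genes passed for the duration term, which was read after the values had been seen. At an unadjusted p under 0.05 the count was 9 of 27 members, beside 15.7% of all genes. The 4-week mice were older, were exposed for longer and were on other arrays, and these cannot be told apart. The control difference shares the 2-week control with the 2-week smoke difference and the 4-week control with the 4-week smoke difference. The 2-week control was the lowest of the 4 pools in 18 of 27 members, against 30.4% of all genes, and in 9 of the 10 genes from triose phosphate to lactate. After median centring these counts were 12 and 8, beside 24.1% of all genes, and after cyclic loess 15 and 9, beside 30.2%. The 4-week smoke pool was the highest in 13 members (29.5% of all genes) and the 4-week control in 11 (25.6% of all genes).

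**Figure D4:**
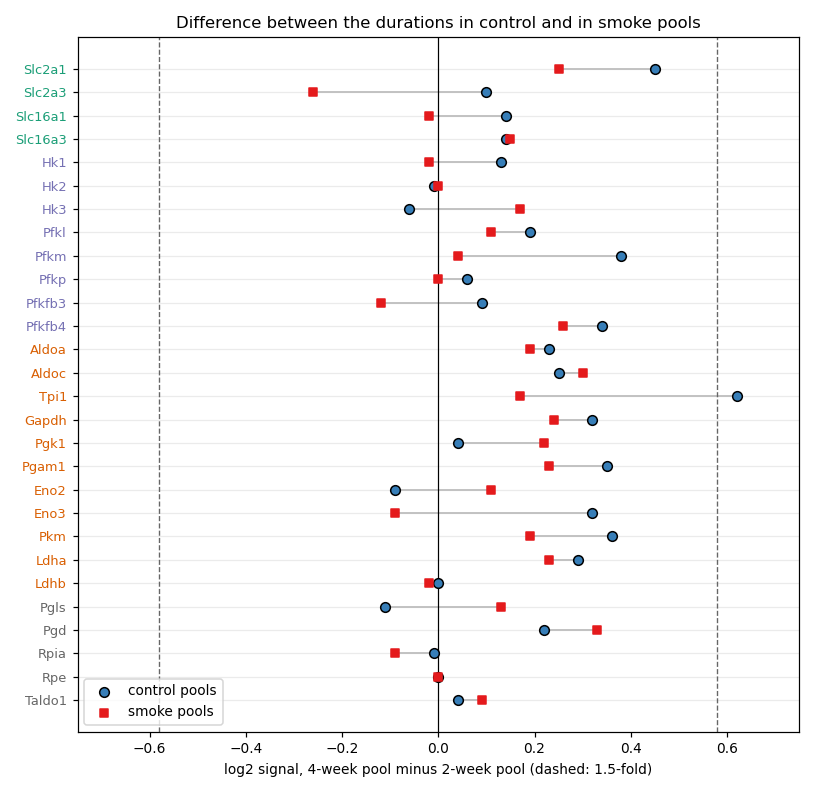
Log2 signal of the 4-week pool minus the 2-week pool (horizontal axis) for each measured gene, in control pools (circles) and in smoke pools (squares), 1 pool against 1. Most triose phosphate genes (orange names) lie to the right of 0 in both, with medians of 0.30 and 0.20, and Tpi1 in controls is past the 1.5-fold line.

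Genes around the pathway were taken from lists of related functions. Among other sugar and monocarboxylate transporters, 1 of 11 above the filter rose and 0 fell. It was Slc5a1, the sodium-coupled glucose transporter, at 5.99 in the 2-week control, 6.62 in the 2-week smoke, 6.24 in the 4-week control and 7.04 in the 4-week smoke pool. Both smoke pools were above both controls, and the effect was 0.72 ± 0.105 (limma adjusted p = 0.0346). That call was lost after median centring (limma adjusted p = 0.139), after cyclic loess (0.0932) and without the duration term (0.436). Without single pools, in fits without duration, the effect of Slc5a1 was 0.51 to 0.92. Its 2-week control lay little above the filter of 5.82, and above the 60th percentile of signal Slc5a1 was not among the genes fitted. Among genes of pyruvate entry into mitochondria 0 of 13 rose and 1 fell. This was Pdk4, the kinase that shuts pyruvate dehydrogenase in fasting, at 10.60, 9.74, 11.30 and 10.16, 0.499-fold over both durations (log2 standard error 0.114; limma adjusted p = 0.0172), a call lost after median centring (0.092), cyclic loess (0.078) and without the duration term (0.471). Without single pools, in fits without duration, its effect was -1.35 to -0.65. Median centring, cyclic loess and the fit without duration also cut the calls over all genes, from 265 to 8, 24 and 0.

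No gene passed among 11 other isozymes above the filter, where Pklr, the liver pyruvate kinase, was at 0.16 ± 0.108 and Hkdc1, a hexokinase relative, at 0.13 ± 0.102. Nor did any of 12 genes of gluconeogenesis and glycogen, led by G6pc3, the widespread glucose phosphatase (0.34 ± 0.124, limma adjusted p = 0.358), and Pygm, the muscle glycogen phosphorylase (-0.23 ± 0.134), or any of 6 other NADPH sources, led by Mthfd1 of folate metabolism (-0.23 ± 0.103) and the malic enzyme Me1 (-0.15 ± 0.101). Of 13 genes on the HIF-1 list above the filter, 0 passed limma and 2 had an unadjusted p under 0.05. Adm, the vasodilator peptide adrenomedullin, was the lowest at -0.87 ± 0.163 (limma adjusted p = 0.0743), with 8.02, 6.82, 7.81 and 7.26 in the 4 pools, and P4ha1, a collagen prolyl hydroxylase, was at -0.44 ± 0.112 (limma adjusted p = 0.176). The list's medians were -0.03 at 2 weeks and -0.10 at 4 weeks.

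Lung identity was checked with marker lists. All 8 alveolar type 2, 8 alveolar type 1 and 8 endothelial markers measured lay above the filter in the mean of the 4 pools. Of these, 0, 0 and 1 passed limma. The 1 was Cldn5, a tight junction protein of endothelium, which fell by 0.81. At both durations 6 of 8 endothelial and 5 of 8 alveolar type 1 markers were lower in the smoke pool, beside 5303 of all 18084 genes. Of the members 5 of 27 were lower at both, Ldhb, Pfkfb3, Slc2a1, Pfkm and Hk2. In each of these 2 marker lists 4 of 8 had an unadjusted limma p under 0.05, beside 11.6% of all genes. Among the endothelial ones Car4 was higher with smoke (0.26). The part of these cells in the values of the lower members was not tested. The array medians lay between 58.8 and 61.7 on the linear scale.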

How the data were processed

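The series held 4 Affymetrix arrays, 1 lung pool each. The authors deposited intensities on a linear scale; the submitters' processing notes name RMA and Affymetrix Expression Console 1.4.1. Because RMA equalises signal distributions, a change shared by all genes of a pool would not be seen. For the genome build, any filter and the base of the linear values, no source used here gives an answer. Of 65956 features, 30604 carried 1 gene symbol, 2146 several and 33206 were not listed in the annotation. Symbols were updated by Entrez ID (22818 features matched the RefSeq table of GRCm38.p6). The tests had been planned for log2 values; the deposited ones were linear, so their log2 was taken. Genes above the 40th percentile of mean log2 signal (5.82) were fitted with limma 3.58.1 in R 4.3.3 (lmFit and eBayes, terms for smoke and duration, 1 residual degree of freedom, 5.38 prior degrees of freedom). With 1 array per group the number of arrays limits the precision. On simulated data for the smoke comparison, with 18084 genes, the fit recovered 29% of genes changed 1.5-fold and 94.7% of those changed 2-fold, and 8.13% of its calls were false. All members could be named; of related lists, genes past limma and otherwise the 2 with the largest mean difference. Members and lists were chosen with earlier results of these data known. For Pgk1 a second feature was tried after its values were seen. Alternatives were other scalings, filters, bases, features, thresholds, models and single pools left out. Labels come from sample titles.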

Additional observations from a re-analysis of the deposited data

Results flagged for a closer look

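In 9 members the smoke difference had opposite signs at 2 and 4 weeks. The change from 2 to 4 weeks was not tested, because 1 pool per group leaves no error for it. On the log2 scale it was -0.45 for Tpi1, -0.41 for Eno3, -0.36 for Slc2a3, -0.16 for Slc16a1, -0.15 for Hk1, -0.08 for Pfkl, -0.06 for Pfkp, 0.23 for Hk3 and 0.24 for Pgls.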

How the results depend on the processing

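The limma count of 1 member became 0 after median centring, after cyclic loess, with no filter and above the 60th percentile of signal. It was also 0 with a prior variance following the mean and without the duration term. Over all genes 265 passed in the main fit, 8 after median centring, 24 after cyclic loess and 0 without the duration term. The count of members stayed 1 with base e, with the mean of all features, with protein-coding genes only and with the other Pgk1 feature. That last alternative was chosen after seeing the data. Counts at 1.5-fold also rested on 1 gene each. At 2 weeks, and at both durations together, the count was 0 after median centring, with base e and above the 60th percentile. At 4 weeks it was 0 with base e and above the 60th percentile. Between the control pools it was 0 after median centring and with base e. At the lower threshold of 0.322 on the log2 scale it was 3 at 4 weeks and 6 between the control pools. The median over the members at 2 weeks was 0.05 after median centring, 0.05 after cyclic loess, 0.06 with base e and 0.11 above the 60th percentile. At 4 weeks it was 0.09 after cyclic loess and turned to -0.04 above the 60th percentile. Between the control pools it was 0.10 after median centring, 0.10 with base e and 0.19 above the 60th percentile. The causes were not tested, except that Aldoc is not among the genes above the 60th percentile. No background or detection value was used, so dim genes such as Aldoc, Slc5a1, Hk3 and Eno2 may hold mostly background. Duration pairs the pools in the model; the labels gave no replicate number for any other pairing.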
